A study of Mus musculus with 6 samples.

Results

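The proteasome is the protease of the cytoplasm and nucleus that degrades proteins tagged with ubiquitin. Its barrel, the 20S core, is built from outer rings of alpha subunits, which gate the entrance, and inner rings of beta subunits, some of which cut peptide bonds. The 19S cap recognises ubiquitin, removes it and unfolds the substrate with a ring of ATPases, and other caps, inhibitors and dedicated chaperones bind the core or help to build it. Its genes are expressed in nearly all cells, and regulated proteolysis by the proteasome drives the cell cycle.

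The genes described here carry 1 gene symbol on their probe set, of the families Psma, Psmb, Psmc, Psmd, Psme, Psmf and Psmg followed by a digit, with 1 gene of that pattern left out. This gave 48 of the 18193 genes measured, read by 101 probe sets; where a gene had several, the one with the highest mean over the 6 arrays was used. Of the 48, 46 are subunits, activators, inhibitors or assembly factors of the proteasome. The other 2, Psmc3ip and Psme3ip1, share only the start of the symbol and are described apart. Psme2, the partner of Psme1, was not analysed here, since its probe set carries several symbols.

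Expression was measured with 6 Affymetrix arrays in mPAC L20, a mouse line of pancreatic duct origin. Every sample carried an adenovirus with a CMV promoter that drives Neurog3, which in the pancreas turns progenitors towards endocrine fates. In 3 samples the cells had first received an adenovirus with a scrambled hairpin (shControl). In the other 3 that virus carried a hairpin (shAtoh8) that targets the bHLH transcription factor Atoh8. The multiplicity of infection was 40 for every virus, on 250000 seeded cells, and culture continued for 44 to 46 h. The samples are independent experiments per the labels, all of 1 line, and no sample lacked Neurog3 or the viruses. Values are log2 signals, and a fold change is shAtoh8 minus shControl on that scale. In such bulk samples fewer cells of a type and less RNA per cell cannot be told apart.

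Array medians lay between 5.49 and 5.56. The shAtoh8 replicate 2 array had weaker hybridisation spikes, at 9.89 against 10.24 to 10.48 on the others, and a wider gap between 3' and 5' actin probe sets, at 0.354 against 0.107 to 0.202. Atoh8, the target of the hairpin, read 8.75, 8.29 and 7.52 in shControl and 7.83, 7.90 and 7.37 in shAtoh8, a log2 fold change of -0.49 ± 0.30 (SE, n = 3 per group) that did not pass (limma adjusted p = 0.573). Within replicate numbers shAtoh8 was lower by -0.92, -0.39 and -0.15, and with the replicate number as a block the interval ran from -0.86 to -0.12 (adjusted p = 0.157). The value was -0.205 without shControl replicate 1, -0.32 without shAtoh8 replicate 3 and -0.82 without shControl replicate 3. The groups overlapped and neither fit passed, so each direction below is between libraries labelled shAtoh8 and shControl. Of 7 measured duct and epithelial markers, Krt8, Krt18 and Krt19 had group means of 13.4 to 13.9. Of the 7, 6 had a negative fold change (85.7%, against 46.9% of all genes), with a median of -0.07. Within all 3 replicate numbers 5 were lower and 1 was higher (21.5% and 24.0% of all genes). The groups did not overlap for 2, lower, and 1, higher (11.4% and 12.6% of all genes). Krt7 had -0.25 ± 0.09 (limma adjusted p = 0.263), without overlap. None of the 7 passed without the replicate block (0 in limma), and 2 had an unadjusted p under 0.05, against 17.5% of all genes. Epcam, an epithelial adhesion molecule with a fold change of -0.73 ± 0.19, fell with the block (adjusted p = 0.0463, against 0.145 without it). Its other probe set gave 0.05, the average of the sets -0.34, and the call held in 1 of 13 alternatives. None of the 6 fibroblast, 4 endothelial, 4 leukocyte and 4 acinar markers passed in limma. At an unadjusted p under 0.05 there were 0, 0, 0 and 1 of them, against the same 17.5% of all genes. All 4 acinar markers were higher within all 3 replicate numbers (24.0% of all genes), with a median fold change of 0.14. For 3 of 4 the groups did not overlap, against 12.6% of all genes, higher. Cela1, a digestive protease, had 0.37 ± 0.14 (adjusted p = 0.291), and the defining markers Cpa1, Ctrb1 and Ptf1a had group means of 3.87 to 5.16, below the array medians. The part of any of these in the values below was not tested.

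On its brightest probe set no proteasome gene passed the test between the hairpins. In limma, with adjustment over all 45037 probe sets, 0 of 48 members had an adjusted p under 0.05, while 1.15% of all genes (0.517% higher and 0.638% lower) and 1.81% of the brighter genes did. Brighter genes are those with a mean above the median of all probe sets, a subset chosen after the values were seen. With the replicate number as a block, as the arrays of 1 number deviated together, 0 of 48 passed against 4.67% of all genes (1.92% higher and 2.75% lower). At an unadjusted p under 0.05 there were 10 members without the block (20.8%, against 17.5% of all genes), 8 higher and 2 lower (8.72% and 8.82% of all genes), and 9 with it (18.8%, against 22.6%). On the brightest probe sets the lowest adjusted p of any member was that of Psmc2, at 0.122 and 0.0880 with the block.

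The differences that were measured were small. On its brightest probe set every member had an absolute log2 fold change under 0.5, a size that 6.29% of all genes and 9.42% of the brighter genes exceeded. Psmc3ip passed that size with array weights, at -0.503, and with its probe sets averaged, at -0.509. Members ranged from -0.46 in Psmc3ip to 0.35 in Psmc2, and the 46 proteasome proteins from -0.26 to 0.35. The 95% interval of the fold change lay wholly within 0.5 in either direction for 42 of 48 members (87.5%), and for 73.7% of all genes. The smallest absolute change called among all genes was 0.50 without the block and 0.42 with it. Psmc3ip, at -0.46, was the one member whose value on its brightest probe set exceeded the second of these sizes.

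**Figure D1:**
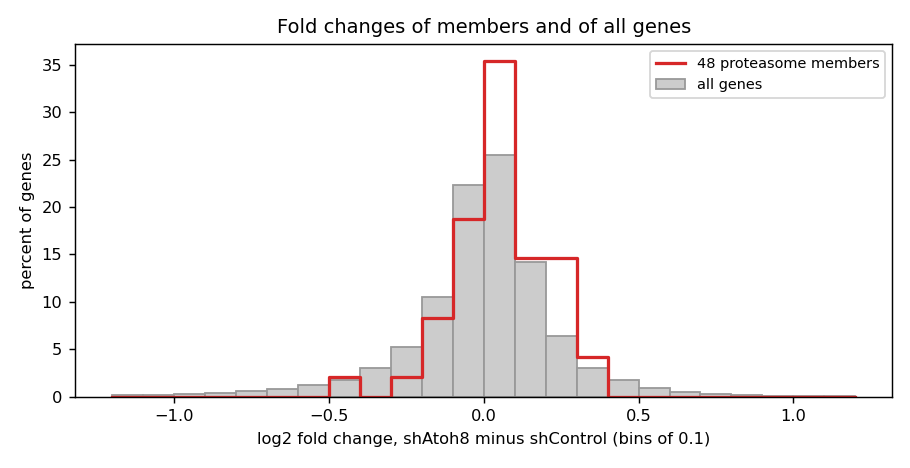
Share of genes (percent, y axis) in bins of 0.1 of the log2 fold change (x axis) for all 18193 genes (grey bars) and the 48 members (red line); 87 genes beyond 1.2 in either direction are not drawn. On their brightest probe sets the members lie between -0.46 and 0.35, with none beyond 0.5.

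Within that narrow range the members leaned upwards. Of the 48, 33 had a positive fold change (68.8%, against 53.1% of all genes), with a median of 0.05 against 0.01. Without shControl replicate 3 it was 27 of 48 (56.2%), and with median centring or without shAtoh8 replicate 1 it was 29 (60.4%). The median over all genes moved too, to 0.0027, -0.010 and 0.016 in that order. The positive share of all genes was taken from the main fit alone. All 3 shAtoh8 arrays lay above all 3 shControl arrays for 11 members (22.9%), against 12.6% of all genes and 16.0% of the brighter ones. The reverse held for 3 members (6.25%, against 11.4% and 15.3%). The difference was positive within all 3 replicate numbers for 21 members (43.8%, against 24.0% of all genes and 28.8% of the brighter ones) and negative within all 3 for 6 (12.5%, against 21.5%). By replicate number, 31, 34 and 31 of 48 were higher in shAtoh8. Members of 1 complex are not independent of each other, and no p is given for the list.

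**Figure D2:**
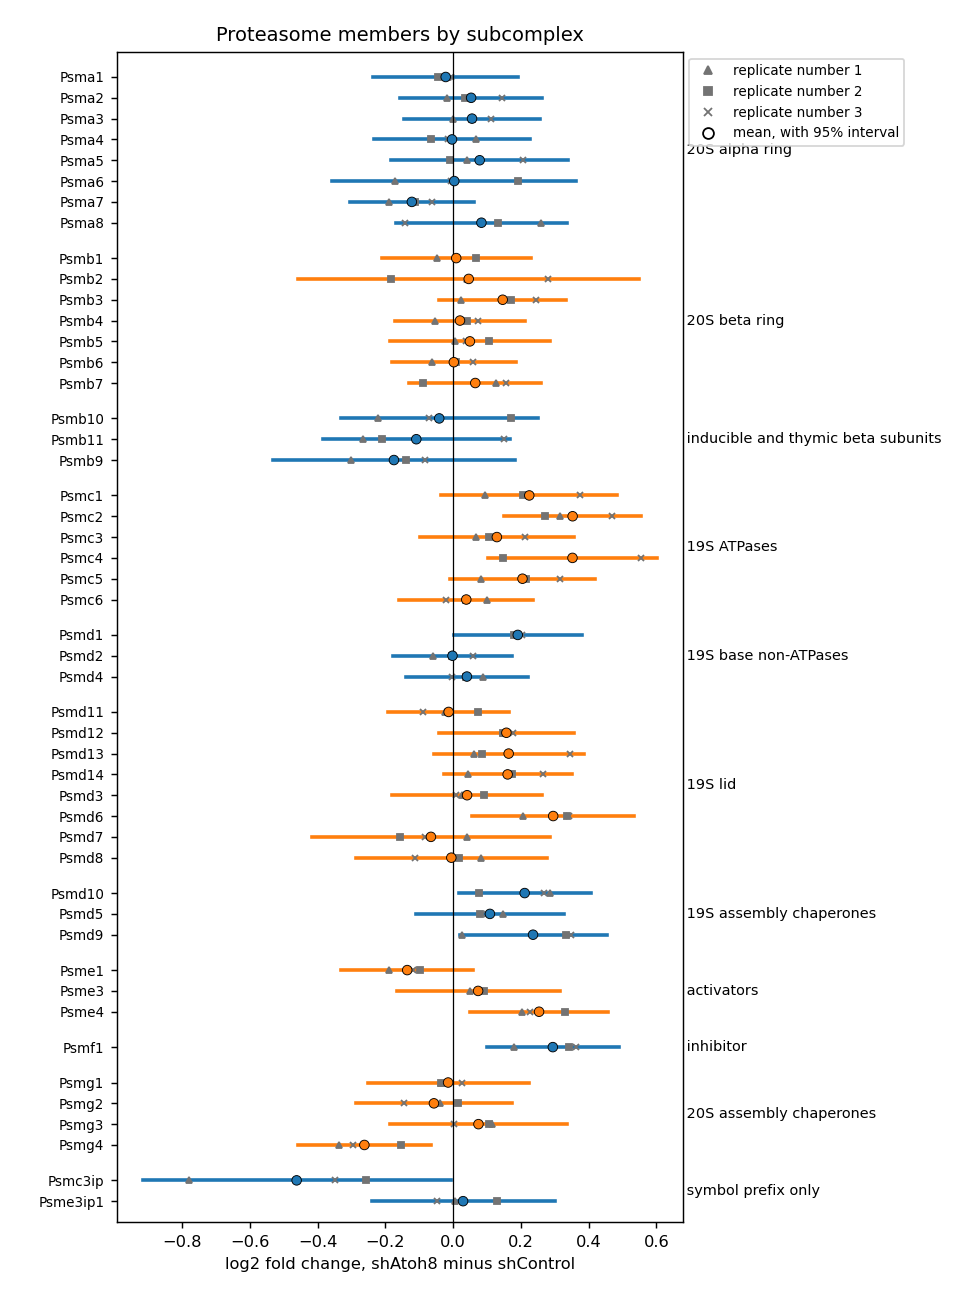
Log2 fold change (x axis, shAtoh8 minus shControl) of each of the 48 members (y axis) by subcomplex, with its 95% interval from limma (bars), the mean (circles) and the difference within each replicate number (grey triangles, squares and crosses); bar colours alternate between subcomplexes. All 7 beta ring genes and all 6 ATPases lie to the right of 0, with medians of 0.05 and 0.21, and the alpha ring lies on both sides of it.

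In the alpha ring of the core none of the 8 genes passed. They had a median fold change of 0.03 and ranged from -0.12 to 0.08. Psma1, Psma4 and Psma6 had fold changes of -0.02 ± 0.09, -0.0033 ± 0.10 and 0.0034 ± 0.15 (SE). Psma7 was the member of the ring whose groups did not overlap, at 11.07, 11.02 and 10.93 in shControl and 10.88, 10.91 and 10.87 in shAtoh8, or -0.12 ± 0.08 (limma adjusted p = 0.588). Its interval ran from -0.30 to 0.06. Psma8, the alpha subunit of the testis, had the most positive value, 0.08 ± 0.11, but read 3.31 to 3.68, below the lower quartile of probe sets on all 6 arrays. The shControl arrays had ring means of 10.60, 10.58 and 10.44, and the shAtoh8 arrays 10.60, 10.60 and 10.46. Replicate 3 was thus the lowest of both groups, and the groups overlapped.

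The beta ring had values as small. Its 7 genes all had positive fold changes, from 0.0021 to 0.15, with a median of 0.05; with median centring 4 of 7 were positive. The 3 catalytic subunits overlapped between groups. Psmb5, with the chymotrypsin-like activity that proteasome inhibitors used in the clinic block, read 10.82, 10.70 and 10.95 in shControl and 10.83, 10.80 and 10.99 in shAtoh8 (0.05 ± 0.10, adjusted p = 0.908). Psmb6, with the caspase-like activity, read 11.35, 11.23 and 11.23, then 11.29, 11.24 and 11.29 (0.00 ± 0.08, adjusted p = 0.995, interval -0.18 to 0.18). Psmb7, with the trypsin-like activity, read 12.001, 12.062 and 11.939, then 12.128, 11.974 and 12.095 (0.07 ± 0.08, adjusted p = 0.830, interval -0.13 to 0.26). The upper end of the Psmb6 interval is a 1.14-fold difference.

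Psmb3, a structural beta subunit, had the largest value of the ring. It read 11.01, 10.92 and 10.86 under shControl and 11.04, 11.09 and 11.11 under shAtoh8, with no overlap (0.15 ± 0.08, adjusted p = 0.507). Psmb2 was the least precise, with shAtoh8 arrays from 9.72 to 10.58 and an interval of -0.46 to 0.55. Over the 14 ring subunits other than Psma8, the range over replicate numbers exceeded the difference between groups for 11, or 78.6%, against 67.1% of all genes.

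The inducible subunits, which replace catalytic ones when interferon is present and change the peptides that are made, had lower means in shAtoh8 that did not pass. Psmb9, which takes the place of Psmb6, read 8.24, 8.01 and 7.70 in shControl and 7.93, 7.87 and 7.62 in shAtoh8. The groups overlapped, but within each replicate number shAtoh8 was lower, by -0.30, -0.14 and -0.08 (-0.17 ± 0.15 SE, adjusted p = 0.723, and 0.370 with the block). Its value was -0.05 without shControl replicate 1, -0.08 without shAtoh8 replicate 3 and -0.31 without shControl replicate 3. Psmb10, which takes the place of Psmb7, had values of 9.70, 9.39 and 9.35, then 9.48, 9.56 and 9.28 (-0.04 ± 0.12, adjusted p = 0.941), and its sign differed between replicate numbers. Psmb11, the catalytic subunit of the thymus, read 3.89 to 4.31, below the lower quartile of probe sets on 4 of 6 arrays.

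Psmc2 and Psmc4, ATPases of the 19S cap, had the most positive values of the members on their brightest probe sets; with probe sets averaged, Psmf1 and Psmd6 did. All 6 ATPases were higher in mean in shAtoh8, with a median of 0.21. They were also higher in each of the 13 alternatives run, where the median ranged from 0.15 to 0.30. The alternatives reuse the same arrays, and the replicate block and the trend and robust variance model move no fold change. None of the 6 passed limma (0 at an adjusted p under 0.05, without or with the block). At an unadjusted p under 0.05 there were 2 without the block and 3 with it, against 17.5% and 22.6% of all genes in either direction. The shControl arrays had ring means of 10.74, 10.64 and 10.56, and the shAtoh8 arrays 10.91, 10.81 and 10.88. Every shAtoh8 array thus lay above every shControl array, and the differences within replicate numbers were 0.17, 0.16 and 0.32. Whether the ATPases differ from the 20S rings was not tested.

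Psmc2 read 11.23, 11.13 and 11.08 in shControl and 11.55, 11.40 and 11.55 in shAtoh8. The groups did not overlap, and the fold change of 0.35 ± 0.09 (SE), or 1.28-fold, had an interval of 0.15 to 0.55 and a limma adjusted p of 0.122. Over the alternatives its value ranged from 0.25 to 0.40, and its adjusted p from 0.0686, with its probe sets averaged, to 0.380 without cross-hybridising sets. The set used here is one of those, and without it the fold change was 0.25. Its other probe sets had 0.25 ± 0.11 and 0.24 ± 0.14, the last at a mean level of 4.04. Psmc4, singled out after its values were seen, read 10.711, 10.751 and 10.447, then 11.064, 10.899 and 11.003 (0.35 ± 0.11, adjusted p = 0.189), also without overlap. Its other probe set gave 0.23 ± 0.10. Of all genes, 935 had a more positive value than Psmc2.

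Psmc5 was the third ATPase whose groups did not overlap, at 11.10, 10.88 and 10.90 against 11.18, 11.10 and 11.21 (0.20 ± 0.09, adjusted p = 0.387). It too was singled out after its values were seen. Such a gap, with shAtoh8 higher, held for 3 of the 6 ATPases, against 12.6% of all genes and 16.0% of the brighter ones. Psmc1 and Psmc3 had 0.22 ± 0.11 and 0.13 ± 0.10, each higher within all 3 replicate numbers. Psmc6 was the smallest of the ring. It read 10.42, 10.43 and 10.59 in shControl and 10.52, 10.47 and 10.57 in shAtoh8 (0.04 ± 0.08, adjusted p = 0.915), and its sign turned within replicate number 3.

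**Figure D3:**
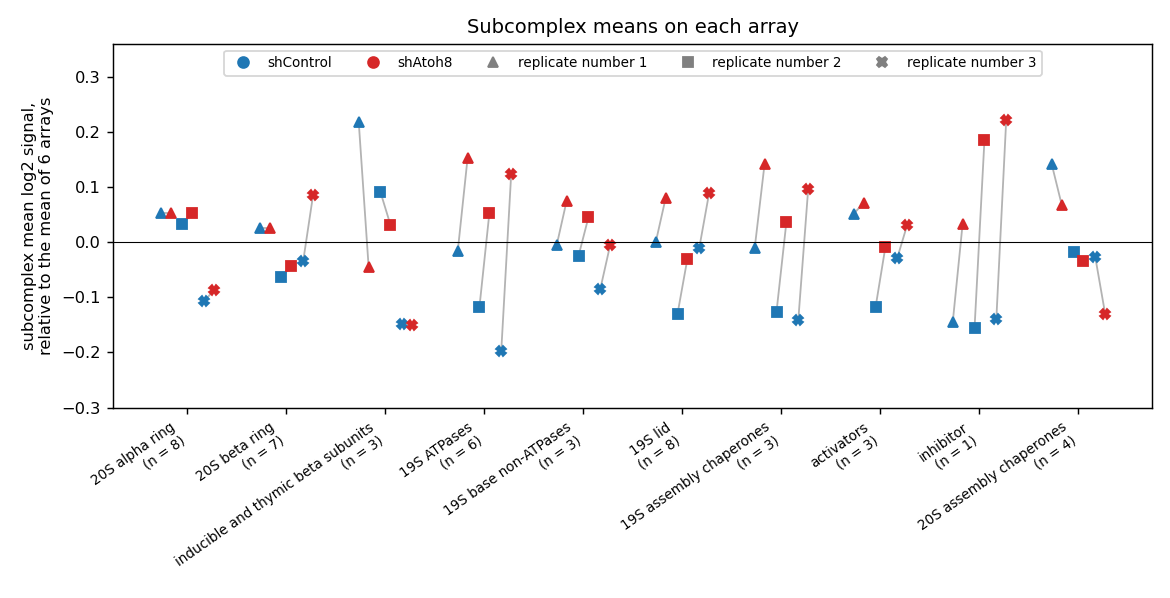
Mean log2 signal of each subcomplex on each array, relative to its mean over the 6 arrays (y axis), for shControl (blue) and shAtoh8 (red), with lines joining arrays of the same replicate number. The ATPases differ by 0.17, 0.16 and 0.32 within replicate numbers, and the alpha ring by 0.00, 0.02 and 0.03.

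The base of the cap also holds scaffold and receptor subunits. Psmd1, a large scaffold subunit, read 10.93, 10.93 and 10.81 under shControl and 11.12, 11.11 and 11.01 under shAtoh8, with no overlap and with nearly equal differences within replicate numbers of 0.19, 0.18 and 0.20 (0.19 ± 0.08 SE, adjusted p = 0.356). Psmd2, the other large scaffold, was level at 11.61, 11.56 and 11.50 against 11.55, 11.56 and 11.55 (-0.0018 ± 0.08, adjusted p = 0.996). Psmd4, a ubiquitin receptor, had 0.04 ± 0.08.

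The lid, which carries the deubiquitinase Psmd14, had 8 genes with a median fold change of 0.10, 5 of them positive. Psmd6, a scaffold subunit, had the most positive value: 10.69, 10.47 and 10.69 in shControl, 10.89, 10.81 and 11.03 in shAtoh8. Its groups did not overlap (0.30 ± 0.10 SE, interval 0.06 to 0.53, adjusted p = 0.251 and 0.123 with the block). Psmd14, singled out after its values were seen, read 11.48, 11.39 and 11.31, then 11.53, 11.56 and 11.58 (0.16 ± 0.08, adjusted p = 0.455), again without overlap. Psmd12 and Psmd13 had 0.16 ± 0.09 each, while Psmd3, Psmd8 and Psmd11 lay between -0.01 and 0.04. Psmd7, with the most negative value, read 10.12, 9.81 and 10.08, then 10.16, 9.66 and 10.00 (-0.07 ± 0.15, adjusted p = 0.920).

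The 3 chaperones of the cap had a median fold change of 0.21, and the 4 of the core with a Psmg symbol one of -0.04. Pomp, a chaperone of the core outside these symbol families, had 0.29 ± 0.10 (adjusted p = 0.230) and is described with the partners. Psmd5, Psmd9 and Psmd10 bind ATPases while the base is built and leave the finished particle. On their brightest probe sets all 3 were positive within all 3 replicate numbers, against 24.0% of all genes. Psmd9 read 8.01, 7.78 and 7.80 under shControl and 8.04, 8.12 and 8.15 under shAtoh8, with no overlap (0.24 ± 0.09 SE, adjusted p = 0.315). Its other probe sets, at mean levels of 5.53 and 3.32, gave 0.07 ± 0.10 and 0.08 ± 0.09. With its probe sets averaged the value was 0.13. Psmd10, also known as gankyrin, had 0.21 ± 0.08 (adjusted p = 0.317) and Psmd5 0.11 ± 0.09 (adjusted p = 0.717).

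The chaperones of the core among the members, Psmg1 to Psmg4, help the alpha ring to form. Psmg4 was the proteasome protein with the most negative fold change: it read 9.76, 9.70 and 9.66 in shControl and 9.43, 9.55 and 9.36 in shAtoh8. The groups did not overlap (-0.26 ± 0.08 SE, interval -0.46 to -0.06, adjusted p = 0.216), and its other probe set, at a mean level of 4.09, gave -0.06. Psmg1, Psmg2 and Psmg3 had -0.01 ± 0.10, -0.06 ± 0.10 and 0.07 ± 0.11. The difference between the chaperone families was not tested.

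Activators open the core without the ATPase cap. Psme4, the large nuclear activator PA200, read 10.55, 10.44 and 10.39 under shControl and 10.75, 10.77 and 10.62 under shAtoh8, with no overlap (0.25 ± 0.09 SE, adjusted p = 0.245). Its probe sets at a mean level above 9 gave 0.25, 0.28 and 0.21, and of its other 3, at levels of 3.30 to 4.33, 2 were negative. Psme1, an interferon-induced activator subunit, went the other way, at 11.39, 11.27 and 11.42 against 11.20, 11.17 and 11.30 (-0.14 ± 0.08, adjusted p = 0.570). Psme3, the nuclear activator, had 0.07 ± 0.10.

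Psmf1, known as PI31, binds the core, inhibits it in vitro and links it to transport in cells. It read 8.97, 8.96 and 8.97 in shControl and 9.15, 9.30 and 9.34 in shAtoh8, so that the tightest control values of any member lay below all shAtoh8 arrays. The fold change was 0.29 ± 0.08 (SE) or 1.23-fold, with an interval of 0.10 to 0.49 and an adjusted p of 0.165 (0.133 with the block). Its other 3 probe sets, all dimmer, gave 0.51 ± 0.16, 0.51 ± 0.17 and 0.46 ± 0.19. The dimmest, at a mean level of 5.66, passed with the block (adjusted p = 0.0448, against 0.363 without it), with differences of 0.38, 0.50 and 0.49 within replicate numbers. As the mean of its probe sets the fold change of Psmf1 was 0.44.

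**Figure D4:**
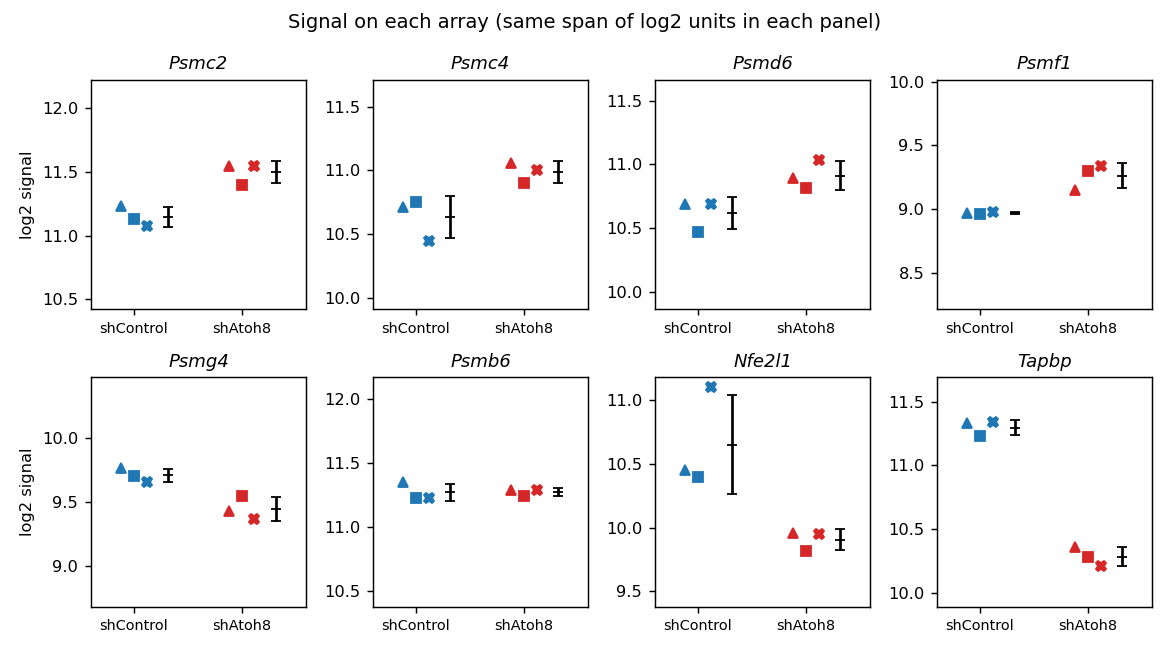
Log2 signal (y axis) on each array of shControl (blue) and shAtoh8 (red) for 6 members and for Nfe2l1 and Tapbp, with the replicate numbers as triangles (1), squares (2) and crosses (3) and black bars for the mean and SD (n = 3); each panel spans the same number of log2 units. The groups do not overlap for Psmc2, Psmc4, Psmd6, Psmf1 and Psmg4, overlap for Psmb6, and are furthest apart for Tapbp.

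Of the 2 genes that share only the symbol, Psmc3ip had the most negative value of all 48. It encodes a partner of the recombinases that pair homologous chromosomes, not a proteasome subunit. Psmc3ip read 7.562, 7.002 and 6.822 in shControl and 6.783, 6.746 and 6.472 in shAtoh8, so that the groups did not overlap (-0.46 ± 0.19 SE, adjusted p = 0.352, and 0.106 with the block). Without shControl replicate 1 the value was -0.24. Its other probe set gave -0.56. Psme3ip1, a protein that binds Psme3, had 0.03 ± 0.11.

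The probe sets of a gene did not always have the same sign. Of the 26 members with several, 13 had positive values on all of them, 4 had negative values on all (Psma7, Psmc3ip, Psmd2 and Psmg4) and 9 had both. The 9 were Psma1, Psma5, Psma6, Psmb1, Psmd7, Psmd11, Psme3, Psme4 and Psmg2, none of which passed. Among ATPases with several probe sets, Psmc1, Psmc2, Psmc4 and Psmc6 were positive on every one.

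Proteins that work with the proteasome under other symbols were taken as a second list: 22 of the 29 listed genes were measured. None passed limma (0 without and 0 with the block), with a median fold change of -0.02. At an unadjusted p under 0.05 there were 5 without the block, 4 higher and 1 lower (17.5% of all genes in either direction). With the block there were 7, 5 higher and 2 lower (22.6% of all genes). Nfe2l1 encodes a transcription factor that is itself degraded by the proteasome and raises proteasome genes when the enzyme is inhibited. It had the most negative fold change of the list: 10.45, 10.40 and 11.10 in shControl and 9.96, 9.81 and 9.95 in shAtoh8. The groups did not overlap, and the fold change of -0.74 ± 0.18 (SE), 1.67-fold lower, missed the threshold (adjusted p = 0.126, and 0.0505 with the block). The highest array was shControl replicate 3, and without it the value was -0.52. Over 13 alternatives it ranged from -0.87 to -0.52. Pomp, the chaperone that completes the core, read 10.762, 10.700 and 10.501, then 10.868, 10.998 and 10.970 (0.29 ± 0.10, adjusted p = 0.230). Nfe2l2, also on the list, went the other way from Nfe2l1, without overlap (0.26 ± 0.09, adjusted p = 0.245). It read 12.096, 11.989 and 11.964, then 12.335, 12.155 and 12.345. Ubqln2 had the most positive value of the list, 0.45 ± 0.16 (adjusted p = 0.271). The groups did not overlap for 4 of the 22, higher, and 2, lower, against 12.6% and 11.4% of all genes. The part of Nfe2l1 or Nfe2l2 in the members' values was not tested.

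Nfe2l1 binds antioxidant response elements, so the promoters of the members were read for its core, TGACNNNGC, on either strand, in RefSeq windows of GRCm38.p6 from 250 bases before to 50 after the start. A window was given for 40 of 48 members (43 windows). The core was found in 6 of the 43 windows (14.0%), against 12.4% of all 32851 windows in the table, and the CCAAT box, on either strand, in 37.2% against 37.4%. The shares in these windows and in promoters at large were thus close. The 6 members with the core were Psmb5, Psmb6, Psmc6, Psmd9, Psmd12 and Psme4, with a median fold change of 0.10, against 0.05 in the other 34. A match of these letters is a description and no evidence of binding.

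The windows below run from 120 bases before to 10 after the start, 5' to 3' on the strand of the gene, with the core in capitals. They show the 4 members with a core within 50 bases of the start, and both starts of Psmc2, the member with the lowest adjusted p on its brightest probe set, in which no core was found. The minus strand is given for Psmb5 (chr14:54617986-54618115), and the plus strand for Psmb6 (chr11:70525237-70525366), Psmd9 (chr5:123228070-123228199), Psme4 (chr11:30771655-30771784) and Psmc2 (chr5:21785155-21785284 and chr5:21786627-21786756).
Psmb5: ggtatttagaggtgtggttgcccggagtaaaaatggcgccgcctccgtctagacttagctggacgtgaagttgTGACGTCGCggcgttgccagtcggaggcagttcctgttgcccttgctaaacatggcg
Psmb6: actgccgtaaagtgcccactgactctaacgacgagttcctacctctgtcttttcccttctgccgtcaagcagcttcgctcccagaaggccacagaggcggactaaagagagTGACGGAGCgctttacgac
Psmd9: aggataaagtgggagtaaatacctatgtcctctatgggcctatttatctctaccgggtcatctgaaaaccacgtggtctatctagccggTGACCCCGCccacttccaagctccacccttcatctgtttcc
Psme4: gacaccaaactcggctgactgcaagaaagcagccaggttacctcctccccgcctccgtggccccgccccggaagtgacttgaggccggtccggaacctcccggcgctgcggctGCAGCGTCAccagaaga
Psmc2, first start: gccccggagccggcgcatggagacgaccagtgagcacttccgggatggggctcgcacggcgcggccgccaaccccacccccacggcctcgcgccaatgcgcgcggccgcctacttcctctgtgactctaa
Psmc2, second start: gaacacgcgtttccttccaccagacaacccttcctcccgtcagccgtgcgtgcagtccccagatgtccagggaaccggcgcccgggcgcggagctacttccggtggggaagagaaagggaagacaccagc
The core begins at base -47 in Psmb5, -9 in Psmb6, -31 in Psmd9 and -7 in Psme4, where it lies on the opposite strand. Their fold changes were 0.05, 0.00, 0.24 and 0.25, so members with a core near the start were both level and among the more positive.

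Interferon and antigen presentation genes were the third list, since the inducible subunits and Psme1 serve that pathway. Of 17 genes 16 were measured, and 1 passed, lower (against 0.638% of all genes), as it did with the block. Tapbp, tapasin, which loads peptides onto class I molecules, read 11.33, 11.23 and 11.34 in shControl and 10.36, 10.28 and 10.21 in shAtoh8. It fell by 1.01 on the log2 scale (SE 0.08, n = 3 per group), or 2.02-fold (limma adjusted p = 0.0104); on its other probe set the value was -1.10 ± 0.18. The call was lost without shControl replicate 1 (adjusted p = 0.0570), shControl replicate 2 (0.0784) or shAtoh8 replicate 1 (0.0520), and over all 13 alternatives the value ranged from -1.05 to -0.98. The peptide transporter subunits did not pass, with 0.25 ± 0.11 for Tap1 and -0.12 ± 0.07 for Tap2, and neither did the interferon-induced factor Irf1 (-0.05 ± 0.12). Of the 16 genes 11 were negative (68.8%, against 46.9% of all genes), with a median of -0.10. At an unadjusted p under 0.05 there were 3, all lower, against 8.82% of all genes. They were Tapbp, Erap1 (-0.27 ± 0.08, adjusted p = 0.185) and Ifnar2 (-0.28 ± 0.10, adjusted p = 0.257). The groups did not overlap for 4 of the 16, lower, and 0, higher, against 11.4% and 12.6% of all genes. Within all 3 replicate numbers 8 were lower and 1 was higher, against 21.5% and 24.0%. Psmb9, Psmb10 and Psme1 had -0.17, -0.04 and -0.14, none past the threshold.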

How the data were processed

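The values are log2 signals per probe set, as the authors deposited them; the submitters' processing notes name RMA and affy, and the range of the values shows the log2 scale. RMA corrects background, quantile-normalises the arrays and summarises probe sets, and the normalisation hides any shift shared by nearly all genes. The sources used here give no version of RMA or affy. Of 45101 probe sets, 64 controls were left out and 45037 were tested, with no brightness filter. Symbols came from the platform annotation (34945 probe sets with 1 symbol, 932 with several, 9160 with none); Entrez IDs were compared with RefSeq names, and 0 symbols changed. The 1 gene left out of the family is not reported here.

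Groups were compared with limma (3.58.1; R 4.3.3), by lmFit followed by eBayes (4 residual and 3.30 prior degrees of freedom), with two-sided p-values adjusted by the Benjamini-Hochberg method and a threshold of 0.05. Errors are moderated standard errors and intervals are 95%. The number of arrays limits the precision. Named genes were Atoh8, any member that passed, the most positive and most negative member of each subcomplex, the catalytic and inducible beta subunits, in the partner and interferon lists those that passed, up to 6, or the 2 with the smallest p, and members whose probe sets differ in sign. Other genes with printed values, such as Psmd10, Tap1 and Irf1, were chosen after their values were seen. The members and lists were chosen with earlier results of these data known. Arrays of the same replicate number deviated together (correlations of 0.407, 0.187 and 0.433, against -0.351 to 0.0292 between numbers). These deviations were taken from the mean of each group, so the correlations within and between numbers are not independent. The fit with the block took the numbers to pair the arrays, and the main fit did not. Alternatives were the replicate block, a trend and robust variance model, array weights, median centring, brighter probe sets alone, the average over all probe sets of a gene, leaving out cross-hybridising sets, and each array left out.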

Additional observations from a re-analysis of the deposited data

How the results depend on the processing

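With 1 value per gene, no proteasome member and no partner passed in any of the 13 alternatives (0 in each), the replicate block among them. The replicate block left the members' median at 0.05, since it moves no fold change, and changed no call of a member on its brightest probe set. Over the alternatives that median ranged from 0.03 to 0.07. With median centring the medians were 0.00696 for the alpha ring, 0.0194 for the base non-ATPases and 0.0779 for the lid, and Psmb6 turned to -0.0192. With brighter probe sets alone the alpha ring had 0.00341. With all probe sets of a gene averaged, the base non-ATPases had 0.0872, the cap chaperones 0.127, the activators -0.00705 and the inhibitor 0.444. With 1 array left out at a time, medians ranged from -0.0360 to 0.0794 (alpha ring), 0.00544 to 0.0668 (base non-ATPases), 0.0480 to 0.145 (lid), 0.00417 to 0.136 (activators) -0.0963 to 0.0256 (core chaperones) and -0.21 to -0.05 (inducible and thymic subunits; -0.05 without shControl replicate 1, -0.06 without shAtoh8 replicate 1, -0.21 without shControl replicate 3). Over all alternatives 23 of 48 members had both signs, none of which passed in any. They include, with the range when 1 array is left out, Psma8 (-0.00206 to 0.143), Psmb5 (-0.0144 to 0.115), Psmb6 (-0.0176 to 0.0416), Psmb10 (-0.105 to 0.0675), Psmd2 (-0.0320 to 0.0254), Psmd7 (-0.177 to 0.0761), Psmg3 (-0.0141 to 0.143) and Psme3ip1 (-0.0326 to 0.123). The count of interferon genes was 0 to 1.

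Over all genes 210 were called, against 849 with the block, 339 with array weights, 324 of 11512 brighter genes, 459 with probe sets averaged, and 0 to 117 with 1 array left out. The cause of these differences was not tested.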
